A study of Mus musculus with 6 samples.

Results

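The SLC25 family holds carrier proteins, most of them in the inner mitochondrial membrane and a few in other membranes, and 37 of its genes, named Slc25a followed by a number, were examined in the mouse left ventricle (LV). Members were the genes of that name in the authors' table of 12629 gene names and were joined by gene identifier to the counts of each mouse. The members were thus chosen by name, but from a table that holds only part of the 56923 genes in the count table. All 37 were among the 17212 genes that passed the filter on low counts. Another 8 Slc25a symbols of the count table are not in the table of names and are not members. Their summed counts over the 6 mice ran from 0 for Slc25a48 and Slc25a54 to 174 for Slc25a31, the germ cell type of ADP/ATP carrier, while the lowest sum of a member was 549, for Slc25a53. Membership therefore moved with the level of a gene, and that all 37 passed the filter is not a result.

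mRNA from the LV of 12-week-old mice was sequenced, 3 of them Lztr1 R409C/+ and 3 WT, each with its own library, to ask how the mutation bears on gene expression in the heart. The Lztr1 R409C/+ genotype is a heterozygous knock-in change of an arginine of LZTR1, an adaptor of a ubiquitin ligase for RAS proteins that is mutated in Noonan syndrome. Both groups were backcrossed to C57BL/6J, the methods state that male mice were used, and hearts were perfused with buffer before the LV was taken. The sample labels say heart, and no agent was given to either group.

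Carriers of this family share a fold built from repeats of one module and pass small molecules across the membrane, many of them by exchanging a substrate on one side for another on the other side. They exchange ADP for ATP, take up phosphate for ATP synthase, pass the reducing equivalents of NADH across the membrane through the malate-aspartate shuttle, and bring in amino acids, nucleotides, cofactors and iron for reactions of the matrix. In the heart, whose work is paid for by oxidative phosphorylation, the ADP/ATP carrier and the phosphate carrier are among the abundant proteins of the inner membrane.

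None of the 37 genes differed between the genotypes at a false discovery rate of 0.05. The median log2 fold change of the family lay near that of all genes tested, and the family was not compared with other genes by a test. By edgeR's quasi-likelihood test 0 members were higher and 0 lower, beside 0.0349% of all genes tested higher and 0.00581% lower, and the lowest Benjamini-Hochberg adjusted p of a member was 0.453 (Slc25a45). DESeq2's Wald test and edgeR's exact test also called 0 members. In the Lztr1 R409C/+ LVs 18 members had a fitted value above WT and 19 below, and the median log2 fold change was -0.0142, beside 0.0122 over all genes tested. The median size of the log2 fold change was 0.173 for the members and 0.216 for all genes, 35 of the 37 lay under 0.5 in size, and 0 lay over 1. Standard errors of the members ran from 0.14 to 0.38, and a log2 fold change as large as 0.78 (SE 0.26) did not pass with 3 mice against 3.

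At an unadjusted p under 0.05, 2 members were higher, Slc25a45 and Slc25a1, beside 5.77% of all genes, and 1 was lower, Slc25a15, beside 2.86%. The values of 2 members did not overlap between genotypes and were higher in every Lztr1 R409C/+ mouse, beside 8.3% of all genes, and those of 6 members were lower in every one, beside 7.23%. As shares of the 37 members these counts were 5.41% and 16.2%, on small numbers. With library size alone in place of TMM normalization, the median of all genes moved to -0.14 and that of the members to -0.18, and the counts of members without overlap became 0 higher and 2 lower, and with upper quartile scaling they became 3 higher and 3 lower.

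Libraries held 66130887 to 72641124 counts. Scaled by the TMM factors, effective library sizes ran from 55410589 to 94726792, and 3 counts stood for 0.0317 to 0.0541 CPM (counts scaled by the size of the library). The libraries differed in the share of counts from the 37 genes encoded by mitochondrial DNA, which was 36.5%, 37.3% and 13.8% in WT mice 1, 2 and 3 and 45.4%, 35.0% and 29.7% in Lztr1 R409C/+ mice 1, 2 and 3. WT mouse 3 stands apart with the lowest share and the highest TMM factor, 1.39. All 7 cardiomyocyte markers were detected, with summed levels of 39180 to 42710 CPM in WT and 29400 to 41190 CPM in Lztr1 R409C/+ mice. The 4 atrial markers summed to 38.1 to 107.0 CPM. Nppa made up nearly all of that sum, at 37.65 to 106.5 CPM, while Myl7, Sln and Myl4 lay at 0.5701 CPM or below in every mouse. All 6 macrophage markers were higher without overlap in Lztr1 R409C/+ mice, with sums of 171.8 to 193.3 CPM against 91.7 to 96.4 CPM, and their part in the levels of Slc25a45 and Slc25a1, the carriers higher in the same mice, was not tested. The summed adipocyte markers were also higher without overlap, at 241.7 to 275.0 CPM against 156.6 to 207.0 CPM, though only 1 of 6 was higher by itself. That marker was Fabp4, which made up most of the sum, at 232.8 to 264.0 CPM against 148.9 to 198.5 CPM. Adipoq, Plin1, Cidec and Ucp1 lay at 0.19 CPM or below in every mouse. Of the other markers, 2 fibroblast and 1 endothelial marker were higher without overlap, and 2 mural, 1 cardiomyocyte and 1 adipocyte marker were lower. The lower adipocyte marker was Adipoq, at 0.06 to 0.15 CPM in WT and 0 in Lztr1 R409C/+ mice. The part of these other markers in the carriers' levels was not tested. Lztr1 itself lay at 22.2 to 24.2 CPM in WT and 23.9 to 27.9 CPM in Lztr1 R409C/+ mice (log2 fold change 0.13), a level that does not check a base change. In bulk LV, fewer cells of a type and less RNA per cell cannot be told apart.

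The order of the carriers in the LV was steep. Per length of the exon union, as TPM (counts per length, scaled so that all genes of a mouse have the same sum), Slc25a4 led in WT mice with 1567 ± 1450 (SD, n = 3), and it was followed by Slc25a3 with 520.9 ± 341, Slc25a11 with 187.8 ± 117.1, Slc25a5 with 146.6 ± 72.05 and Slc25a34 with 78.4 ± 48.3. Those first 4 members were over 100 TPM, 23 of the 37 were under 10 TPM and 2 were under 1 TPM, Slc25a27 and Slc25a53. The highest member, Slc25a4, stood 9900-fold above the lowest, Slc25a53, whose exon union is 15550 bases long. That distance was 3019-fold with the length of the canonical transcript, with which only Slc25a53 was under 1 TPM. Without WT mouse 3 the distance was 6108-fold, and 5 members were under 1 TPM.

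The wide SDs of the TPM values came with WT mouse 3, in which Slc25a4 reached 3241 TPM against 768.5 and 691.2 TPM in WT mice 1 and 2. TPM divides by a total that includes the mitochondrially encoded genes, whose share was lowest in that mouse. On that scale the ranges of neighbours in the order overlapped in 35 of 36 neighbouring pairs, although 16 pairs stood in the same order in all 3 WT mice. On TMM-normalised CPM per kb, a scale added after the values were seen, Slc25a4 had 637.7 ± 208.4, Slc25a3 236.0 ± 11.2, Slc25a11 86.1 ± 1.96 and Slc25a5 70.4 ± 7.14, and 13 of the 36 neighbouring pairs did not overlap in WT. These 13 include each step of the order Slc25a4, Slc25a3, Slc25a11, Slc25a5, Slc25a34, Slc25a12 and Slc25a39, while Slc25a39 overlapped Slc25a13, and Slc25a13 overlapped Slc25a46. The step from Slc25a11 to Slc25a5 held in 4 of the 6 mice. In Lztr1 R409C/+ mice 2 and 3 Slc25a5 was the higher of the pair, and the means of the genotype were 80.9 ± 2.12 for Slc25a11 and 83.4 ± 12.2 for Slc25a5 on that scale. No member moved by more than 1 rank between the scales. With the length of the canonical transcript the first 4 members were the same and Slc25a13 replaced Slc25a34 as the fifth, and the mean for Slc25a3 became 981.8 TPM, so the distances between members depend on the length used.

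**Figure D1:**
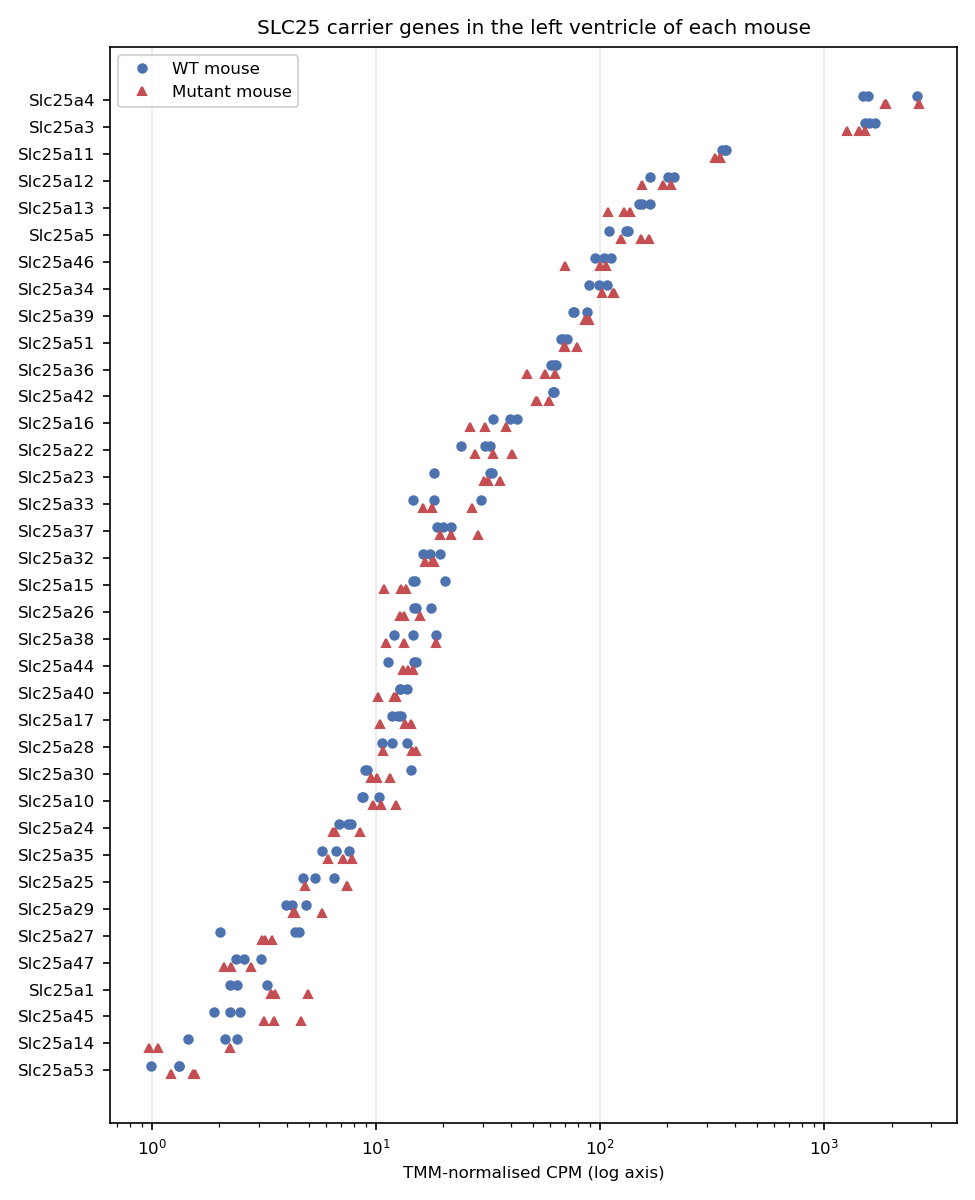
Level of each of the 37 SLC25 carrier genes in each mouse as TMM-normalised CPM on a log axis, not divided by length (circles, 3 WT mice; triangles, 3 Lztr1 R409C/+ mice), ordered by the WT mean. Slc25a4 and Slc25a3 lie at 1271 CPM or above in all 6 mice, and within most genes the circles and triangles overlap.

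Slc25a4 and Slc25a5 encode ADP/ATP carriers 1 and 2, the first typical of heart and skeletal muscle and the second of proliferating and many other cells. Their coding sequences were identical at 692 of 894 positions (77.4%), the closest of the 8 pairs compared below, and their transcripts shared no word of 50 bases. Windows of 60 coding bases that start at a codon and lie within an exon of each gene were compared, and windows across exon junctions were not. The most alike of the windows compared, coding bases 52 to 111, differed at 7 positions. It lies in GRCm39 at chr8:46663849-46663908 on the minus strand for Slc25a4 and at chrX:36059435-36059494 on the plus strand for Slc25a5, both within coding exons. Capitals mark the bases that differ.
Slc25a4: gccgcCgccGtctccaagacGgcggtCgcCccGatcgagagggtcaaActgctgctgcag
Slc25a5: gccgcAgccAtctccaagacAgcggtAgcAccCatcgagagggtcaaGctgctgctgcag

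The least alike of the windows compared, coding bases 397 to 456, differed at 24 of 60 positions, with the same use of capitals. It lies at chr8:46662201-46662260 for Slc25a4 and at chrX:36060781-36060840 for Slc25a5, on the same strands. Both pairs of windows hold bases that differ at short intervals.
Slc25a4: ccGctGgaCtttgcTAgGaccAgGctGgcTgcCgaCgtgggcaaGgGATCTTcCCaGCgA
Slc25a5: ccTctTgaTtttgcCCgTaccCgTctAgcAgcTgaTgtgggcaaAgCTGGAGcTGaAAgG

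The carriers that move adenine nucleotides, phosphate or coenzyme A comprised 9 members, of which 5 had a fitted value above WT and 4 below, with a median log2 fold change of 0.04. None had an unadjusted p under 0.05, and 2, Slc25a3 and Slc25a42, were lower in every Lztr1 R409C/+ mouse. The highest member was Slc25a4 (chr8:46656538-46664325, minus strand, GRCm39). It had 1576, 1486 and 2595 CPM in WT mice 1, 2 and 3 and 1861, 1883 and 2639 CPM in Lztr1 R409C/+ mice 1, 2 and 3. WT mouse 3 and Lztr1 R409C/+ mouse 3 were the highest of their groups, the genotypes overlapped, and the log2 fold change was 0.17 (SE 0.25, edgeR adjusted p = 0.888).

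WT mouse 3 and Lztr1 R409C/+ mouse 3 were also the mice with the lowest mitochondrially encoded share in each group, and the part of that share in the level of Slc25a4 was not tested. A fit added after the data were seen left out WT mouse 3 and Lztr1 R409C/+ mouse 1, the mice with the lowest and the highest share of all. In it the log2 fold change of Slc25a4 was 0.56 (edgeR unadjusted p = 0.0140, adjusted p = 0.435), while Slc25a1 was not under 0.05 (edgeR unadjusted p = 0.0794). These mice also held the highest WT value of Slc25a4, 2595 CPM, and the lowest Lztr1 R409C/+ value, 1861 CPM, so leaving them out by itself raises its fold change. Without WT mouse 3 alone the log2 fold change of Slc25a4 was 0.47, and without Lztr1 R409C/+ mouse 3 it was -0.01. Over the 17 alternatives of the fit the value ran from -0.04 to 0.56 and its direction changed in 2 of them.

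Slc25a4 took 48.2%, 46.2% and 59.8% of the summed TPM of the members in WT mice and 53.6%, 51.9% and 61.9% in Lztr1 R409C/+ mice. Together with Slc25a3 it made up 71.0% ± 4.97 of the family in WT and 72.2% ± 2.43 in Lztr1 R409C/+ mice (SD, n = 3 each). The summed CPM of the members was 5107 ± 672.3 in WT and 5112 ± 342.4 in Lztr1 R409C/+ mice. Without Slc25a4 the sums were 3133.4, 3241.5 and 3287.4 CPM in WT and 2951.5, 3155.4 and 2846.4 CPM in Lztr1 R409C/+ mice, with an overlap of the groups at Lztr1 R409C/+ mouse 2.

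**Figure D2:**
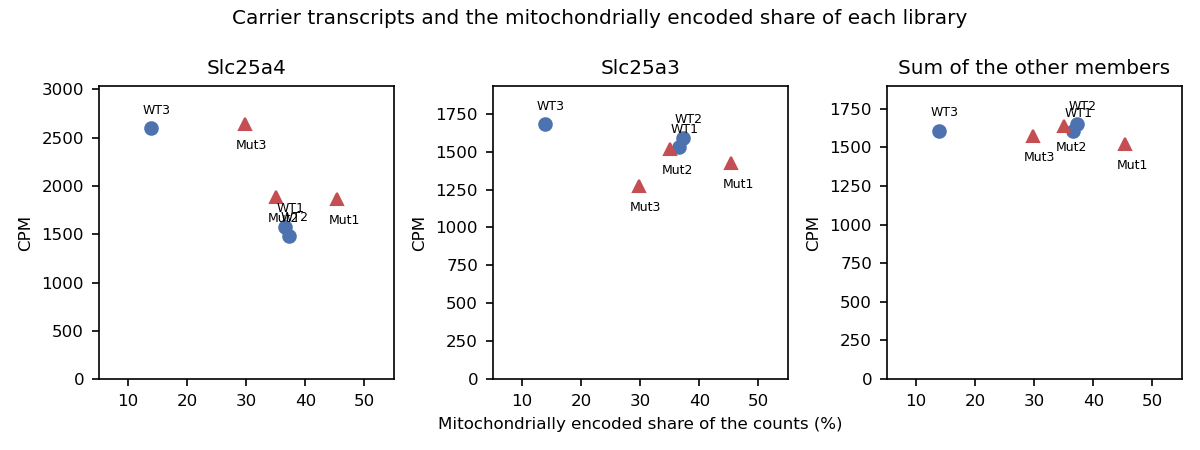
TMM-normalised CPM of Slc25a4, of Slc25a3 and of the other 35 members summed (y axes, from 0), against the percentage of each library's counts from mitochondrially encoded genes (x axis), 1 point per mouse (circles WT, triangles Lztr1 R409C/+). Slc25a4 is highest in WT3 and Mut3, while the sum of the other 35 members stays between 1523.6 and 1649.2 CPM in all 6 mice.

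Slc25a3 (chr10:90951400-90975683, minus strand) encodes the phosphate carrier, which supplies phosphate for ATP synthesis. It had 1530, 1592 and 1681 CPM in WT mice and 1428, 1516 and 1271 CPM in Lztr1 R409C/+ mice. Every Lztr1 R409C/+ mouse lay below every WT mouse, by a narrow margin at Lztr1 R409C/+ mouse 2, and the log2 fold change of -0.19 (SE 0.18) did not pass edgeR's test (adjusted p = 0.809). Slc25a5 had 132.8, 130.6 and 109.9 CPM in WT mice and 123.9, 152.3 and 166.0 CPM in Lztr1 R409C/+ mice, with overlap and a log2 fold change of 0.24 (SE 0.17). WT mouse 3, the highest WT mouse for Slc25a4, was the lowest for Slc25a5.

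Slc25a42, a carrier of coenzyme A, had 61.7, 61.4 and 62.0 CPM in WT mice and 51.7, 59.2 and 52.4 CPM in Lztr1 R409C/+ mice. WT mice were tightly grouped, the genotypes did not overlap, and the log2 fold change was -0.18 (SE 0.14, edgeR adjusted p = 0.773). Its exons share 70 bases with Tmem161a on the opposite strand, which had 13389 counts against 24804 for Slc25a42. Slc25a16, which has been linked with coenzyme A in mitochondria, had the smallest unadjusted p of the group, with 38.5 ± 4.83 CPM in WT and 31.6 ± 5.92 CPM in Lztr1 R409C/+ mice and a log2 fold change of -0.29 (edgeR unadjusted p = 0.131).

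The ATP-Mg/phosphate carriers, which are gated by calcium, are Slc25a23, Slc25a24 and Slc25a25. Slc25a23 had 32.4, 33.0 and 18.1 CPM in WT mice and 30.4, 31.7 and 35.8 CPM in Lztr1 R409C/+ mice, and its low value in WT mouse 3 stood outside the other 5. Slc25a24 had 6.84, 7.49 and 7.71 CPM in WT and 6.57, 8.52 and 6.40 CPM in Lztr1 R409C/+ mice, and Slc25a25 had 5.36, 6.51 and 4.70 CPM against 4.801, 7.46 and 7.40 CPM. Slc25a25 shares 404 exon bases with Naif1 on the other strand, which had 1437 counts over the 6 mice against 2553 for Slc25a25. Slc25a23, Slc25a24 and Slc25a25 all overlapped between genotypes, with log2 fold changes of 0.23, -0.04 and 0.25. Over all settings of the fit these ran from -0.004 to 0.37, from -0.20 to 0.06 and from 0.14 to 0.42. Slc25a17, the carrier of the peroxisome, lay at 12.4 ± 0.548 CPM in WT and 12.7 ± 2.06 CPM in Lztr1 R409C/+ mice.

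**Figure D3:**
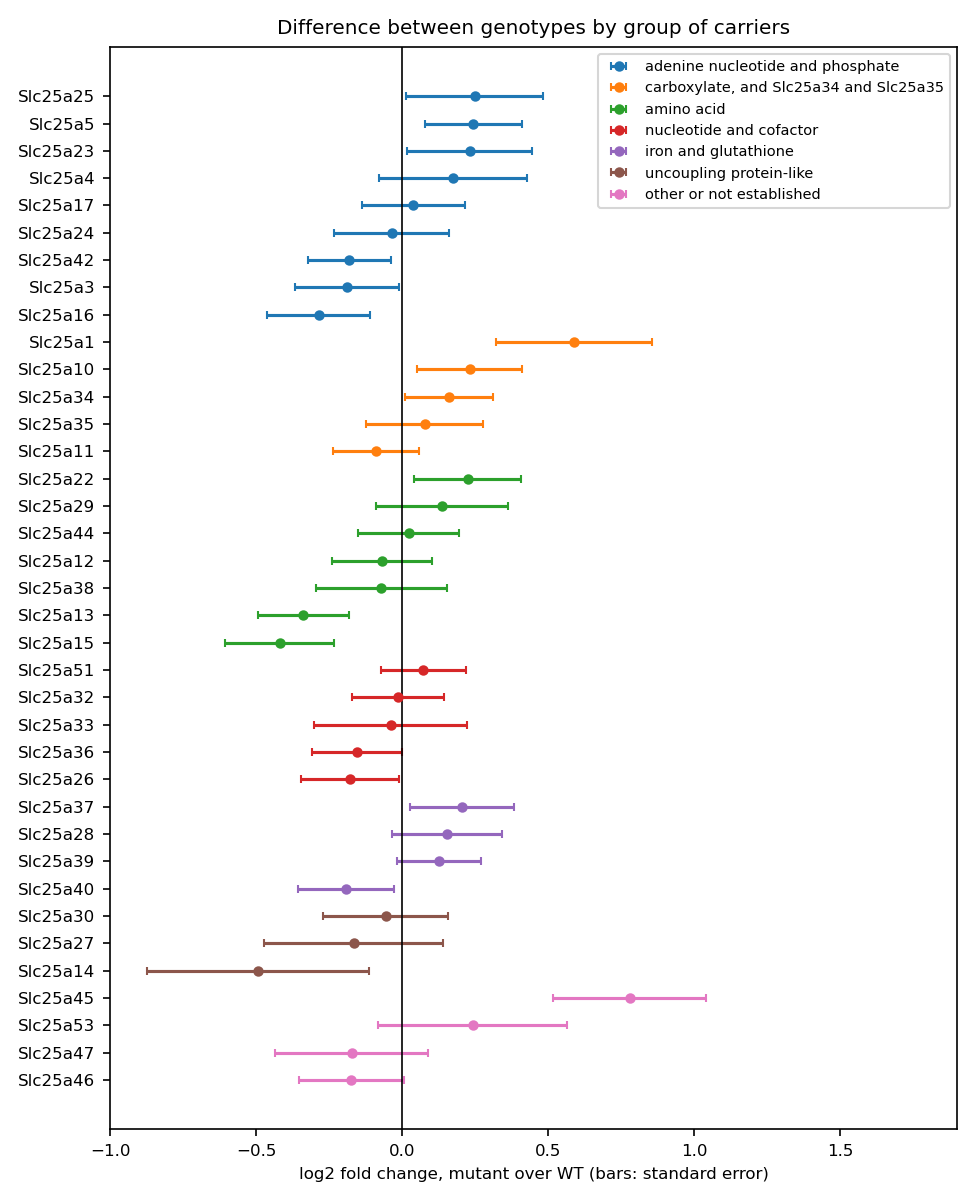
Log2 fold change of Lztr1 R409C/+ over WT with its standard error (bars) from edgeR's fit for the 37 carrier genes, grouped and coloured by the groups of the text (Slc25a34 and Slc25a35 stand with the carboxylate carriers, although their substrates are not settled). Values run from -0.49 for Slc25a14 to 0.78 for Slc25a45, and no colour lies wholly on the higher side.

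Carriers of carboxylates were grouped with Slc25a34 and Slc25a35, relatives whose substrates in mammals are not settled. Of these 5 members Slc25a1, Slc25a10, Slc25a34 and Slc25a35 had a fitted value above WT and Slc25a11 one below, with a median log2 fold change of 0.16. Slc25a11, the oxoglutarate/malate carrier of the malate-aspartate shuttle, was the highest of them, with 349.7, 362.3 and 365.0 CPM in WT mice and 327.3, 341.7 and 343.2 CPM in Lztr1 R409C/+ mice. The groups were tight and did not overlap, yet the difference was -6.01% of the WT mean, with a log2 fold change of -0.09 (SE 0.15, edgeR adjusted p = 0.904). Slc25a11 shares 189 exon bases with Rnf167 on the other strand, which had 10381 counts over the 6 mice against 148450 for Slc25a11.

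Slc25a1 (chr16:17743075-17746245, minus strand) encodes the citrate carrier, which exports citrate for the synthesis of fatty acids and sterols. It had 2.24, 3.28 and 2.41 CPM in WT mice and 3.39, 3.55 and 4.95 CPM in Lztr1 R409C/+ mice. The groups did not overlap, but WT mouse 2 and Lztr1 R409C/+ mouse 1 lay close together, and the log2 fold change was 0.59 (SE 0.27, edgeR unadjusted p = 0.0476, adjusted p = 0.573). Over the fits that left out 1 mouse it ran from 0.40, without Lztr1 R409C/+ mouse 3, to 0.77, without WT mouse 2, and its unadjusted p was over 0.05 in 4 of these 6 fits, all but those without WT mouse 2 and without Lztr1 R409C/+ mouse 1.

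Slc25a34 had 107.7, 89.0 and 99.2 CPM in WT mice and 101.7, 114.1 and 114.9 CPM in Lztr1 R409C/+ mice, with overlap and a log2 fold change of 0.16 (SE 0.15). Its relative Slc25a35 had 6.64, 7.57 and 5.76 CPM in WT mice and 7.13, 6.13 and 7.81 CPM in Lztr1 R409C/+ mice. Of the exon bases of Slc25a35, 1219 overlap Rangrf on the other strand, which had 7710 counts against 2871 for Slc25a35. Slc25a10, the dicarboxylate carrier, lay at 9.25 ± 0.952 CPM in WT and 10.8 ± 1.29 CPM in Lztr1 R409C/+ mice.

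Carriers of amino acids comprised 7 members, 3 with a fitted value above WT and 4 below, with a median log2 fold change of -0.07. Both members without overlap between genotypes were lower in Lztr1 R409C/+ mice. Slc25a15 (chr8:22865516-22889423, minus strand), the ornithine carrier of the urea cycle in liver, had 14.6, 14.95 and 20.4 CPM in WT mice and 13.6, 10.9 and 12.9 CPM in Lztr1 R409C/+ mice. WT mouse 3 was the highest by a wide margin, and the log2 fold change was -0.42 (SE 0.19, edgeR unadjusted p = 0.0439, adjusted p = 0.568). Without WT mouse 3 it was -0.25 with an unadjusted p of 0.184 by edgeR, and the unadjusted p was also over 0.05 without Lztr1 R409C/+ mouse 2 (0.148) and without Lztr1 R409C/+ mouse 3 (0.0586).

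Slc25a12 and Slc25a13 encode the aspartate/glutamate carriers aralar and citrin, the calcium-regulated step of the malate-aspartate shuttle. Slc25a12, the isoform typical of muscle and brain and the highest member of the group by CPM and per length of the exon union, though not with canonical length, had 200.6, 214.0 and 166.7 CPM in WT mice and 154.5, 208.2 and 191.2 CPM in Lztr1 R409C/+ mice, with overlap and a log2 fold change of -0.07 (SE 0.17). Slc25a13 (chr6:6040252-6217294, minus strand), the isoform typical of liver, had 149.0, 153.7 and 167.4 CPM in WT mice and 108.2, 136.1 and 127.7 CPM in Lztr1 R409C/+ mice. All Lztr1 R409C/+ mice lay below all WT mice for Slc25a13, with a log2 fold change of -0.34 (SE 0.16, edgeR unadjusted p = 0.0512, adjusted p = 0.578). Leaving out 1 mouse at a time gave -0.42 to -0.26.

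The other carriers of amino acids overlapped between genotypes. Slc25a22, a glutamate carrier, lay at 28.9 ± 4.40 CPM in WT and 33.8 ± 6.44 CPM in Lztr1 R409C/+ mice. Slc25a38, a glycine carrier needed for heme synthesis, lay at 15.1 ± 3.32 and 14.4 ± 3.86 CPM. Slc25a44, a carrier of branched-chain amino acids, lay at 13.7 ± 2.08 and 13.9 ± 0.716 CPM. Slc25a29, a carrier of basic amino acids, lay at 4.35 ± 0.478 and 4.77 ± 0.826 CPM, and 230 of its exon bases overlap Slc25a47 on the other strand, so that reads there cannot be told apart if strand was not used.

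Carriers of nucleotides and cofactors comprised 5 members, 1 with a fitted value above WT and 4 below, with a median log2 fold change of -0.04, and all 5 overlapped between genotypes. Slc25a51, the NAD carrier and the group's highest member, lay at 69.0 ± 2.20 CPM in WT and 72.5 ± 5.50 CPM in Lztr1 R409C/+ mice.

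The pyrimidine nucleotide carriers are Slc25a33 and Slc25a36. Slc25a33 was variable, with 18.2, 14.6 and 29.4 CPM in WT mice and 17.8, 26.8 and 16.1 CPM in Lztr1 R409C/+ mice, and 1 mouse of each genotype stood above the rest. Slc25a36 had 62.0, 63.8 and 60.2 CPM in WT mice and 62.6, 57.05 and 47.3 CPM in Lztr1 R409C/+ mice. Slc25a32, a folate carrier, lay at 17.6 ± 1.57 CPM in WT and 17.5 ± 0.792 CPM in Lztr1 R409C/+ mice, and Slc25a26, the S-adenosylmethionine carrier, at 15.8 ± 1.496 and 14.0 ± 1.57 CPM. Slc25a26 had the smallest unadjusted p of the group (log2 fold change -0.18, SE 0.17, edgeR unadjusted p = 0.305). Of the exon bases of Slc25a26, 1475 overlap Lrig1 on the other strand, which had 15127 counts against 6364 for Slc25a26.

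Carriers of iron and glutathione comprised 4 members, 3 with a fitted value above WT and 1 below, with a median log2 fold change of 0.14. Slc25a37 and Slc25a28, mitoferrin 1 and 2, import iron for heme and iron-sulfur clusters. Slc25a37, the isoform of developing red cells, had 18.8, 19.8 and 21.6 CPM in WT mice and 28.4, 19.3 and 21.6 CPM in Lztr1 R409C/+ mice. Its highest value fell in Lztr1 R409C/+ mouse 1, whose 5 erythroid markers also had the highest sum, 2625 CPM against 578.8 to 1768 CPM in the other 5 mice, and the part of red cells in it was not tested. Slc25a28 had 13.8, 11.8 and 10.6 CPM in WT mice and 15.02, 10.8 and 14.5 CPM in Lztr1 R409C/+ mice.

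Slc25a39 and Slc25a40 are carriers for mitochondrial glutathione, the main thiol antioxidant. Slc25a39, the highest of the 4, had 76.8, 87.0 and 75.7 CPM in WT mice and 85.8, 86.3 and 89.2 CPM in Lztr1 R409C/+ mice, with overlap. Slc25a40 had 12.8, 12.8 and 13.8 CPM in WT mice and 12.2, 12.1 and 10.2 CPM in Lztr1 R409C/+ mice. The Slc25a40 values did not overlap and gave a log2 fold change of -0.19 (SE 0.16, edgeR unadjusted p = 0.266, adjusted p = 0.791).

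The 3 relatives of the uncoupling proteins all had fitted values below WT, Slc25a14 with a log2 fold change of -0.49 (SE 0.38, edgeR unadjusted p = 0.219), Slc25a27 with -0.17 and Slc25a30 with -0.06, and all 3 overlapped between genotypes. Over all settings of the fit the value of Slc25a14 stayed below 0, while that of Slc25a27 ran from -0.46 to 0.02 and that of Slc25a30 from -0.28 to 0.23. Slc25a14 was among the least abundant members and its groups were 1.99 ± 0.482 CPM in WT and 1.42 ± 0.708 CPM in Lztr1 R409C/+ mice, with a log2 fold change of -0.98 without Lztr1 R409C/+ mouse 1 and -0.28 without Lztr1 R409C/+ mouse 2. Slc25a30 was the highest of the 3, with 10.8 ± 3.07 and 10.4 ± 1.07 CPM.

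The last 4 members have roles outside these groups or none that is settled. Slc25a45 (chr19:5927781-5936528, plus strand) had 2.47, 2.22 and 1.9 CPM in WT mice and 3.16, 3.51 and 4.62 CPM in Lztr1 R409C/+ mice. Every Lztr1 R409C/+ mouse was above every WT mouse, and its log2 fold change of 0.78 (SE 0.26) was the greatest in size of the 37 and had the smallest p (edgeR unadjusted p = 0.0114, adjusted p = 0.453). Leaving out 1 mouse at a time gave 0.60 to 0.88, with an unadjusted p of 0.0529 without Lztr1 R409C/+ mouse 3. Slc25a46, which sits in the outer membrane and acts in mitochondrial fission and fusion, was the highest of these 4, with 103.7 ± 8.41 CPM in WT and 92.0 ± 19.6 CPM in Lztr1 R409C/+ mice. Slc25a47, known from liver, lay at 2.67 ± 0.357 and 2.37 ± 0.348 CPM, and Slc25a53 at 1.21 ± 0.188 and 1.43 ± 0.184 CPM.

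**Figure D4:**
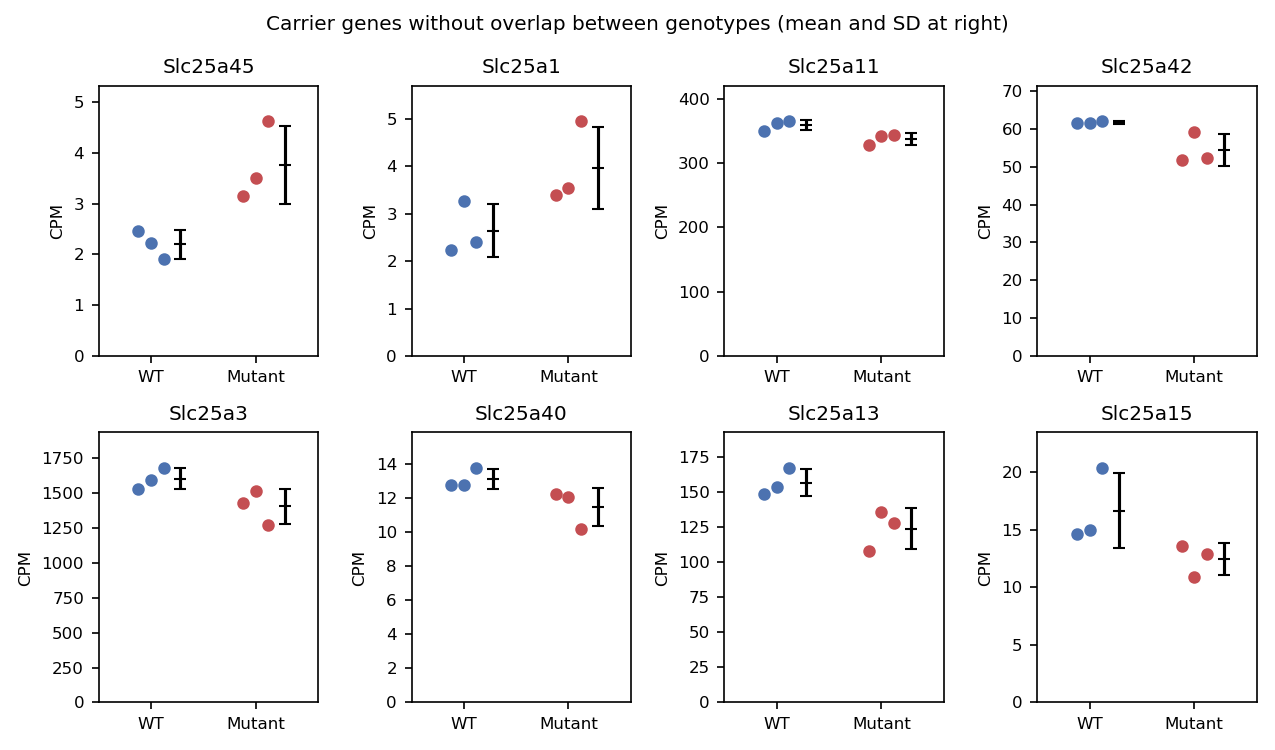
TMM-normalised CPM of the 8 carrier genes whose values did not overlap between genotypes, 1 point per mouse with the mean and SD (n = 3) to the right of each group, and y axes from 0. The 2 higher genes are Slc25a45 and Slc25a1; Slc25a11 and Slc25a42 show the smallest steps, with log2 fold changes of -0.09 and -0.18.

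Ratios between related carriers within a mouse do not depend on the scaling between mice, so 8 pairs were compared as log2 ratios of counts per kb. With 3 mice in each group, the two-sided exact permutation test gives no p below 0.1, and no pair could pass 0.05. The ratio of Slc25a13 to Slc25a12 was -0.71, -0.76 and -0.28 in WT mice and -0.80, -0.90 and -0.86 in Lztr1 R409C/+ mice. It was lower in all 3 Lztr1 R409C/+ mice, by 0.27 (exact p = 0.1, 0.4 after Benjamini-Hochberg adjustment over the 8 pairs), and WT mouse 3 gave most of that distance: without it the ratio fell by 0.12. The ratio of Slc25a39 to Slc25a40 was 3.98, 4.16 and 3.85 in WT mice and 4.21, 4.23 and 4.53 in Lztr1 R409C/+ mice, higher in all 3 by 0.32 (exact p = 0.1, adjusted 0.4).

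The remaining 6 ratios overlapped between genotypes. Slc25a5 to Slc25a4 stood at -3.14 ± 0.59 in WT and -3.10 ± 0.19 in Lztr1 R409C/+ mice (exact permutation p = 1), a mean ratio of 0.114 and 0.117. Mitoferrin 1 to mitoferrin 2 stood at 0.95 ± 0.29 and 0.99 ± 0.18, and Slc25a33 to Slc25a36 at 0.38 ± 0.56 and 0.53 ± 0.37. Among the ATP-Mg/phosphate carriers Slc25a24 to Slc25a23 stood at -1.13 ± 0.56 and -1.46 ± 0.29 (a difference of -0.33, and of -0.005 without WT mouse 3), and Slc25a25 to Slc25a23 at -2.90 ± 0.33 and -2.95 ± 0.29. Slc25a34 to Slc25a35 stood at 4.67 ± 0.30 and 4.75 ± 0.21. The ratios between genes depend on the length used, while the differences between genotypes do not. With the length of the canonical transcript, an alternative added after the values were seen, the WT mean for Slc25a13 to Slc25a12 was 0.29 in place of -0.58, which turns their order, and that for Slc25a33 to Slc25a36 was -0.18 in place of 0.38, which turns theirs too. Mitoferrin 1 to mitoferrin 2 moved from 0.95 to 0.09, near equal levels. By the same change the WT ratio of Slc25a39 to Slc25a40 was 5.83 in place of 16.0, that of Slc25a34 to Slc25a35 was 13.9 in place of 25.4, that of Slc25a24 to Slc25a23 was 0.261 in place of 0.457 and that of Slc25a5 to Slc25a4 was 0.099 in place of 0.114. The order within those pairs was the same with both lengths.

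**Figure D5:**
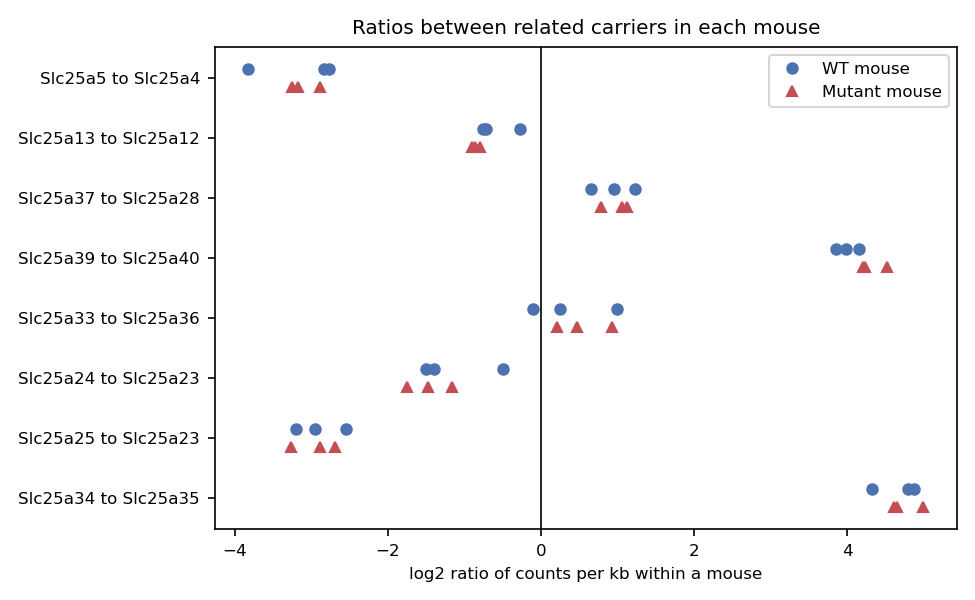
Log2 ratio of counts per kb of exon union for 8 pairs of related carriers in each mouse (circles, 3 WT mice; triangles, 3 Lztr1 R409C/+ mice), with 0 marking equal levels. Only Slc25a13 to Slc25a12 and Slc25a39 to Slc25a40 show no overlap, with differences of -0.27 and 0.32.

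Other genes of mitochondrial transport were read in the same fit. Of 16 genes tested of the machinery that imports the carriers through the TOM and TIM22 complexes, 10 had fitted values above WT and 6 below, the median log2 fold change was 0.12, and 0 passed the false discovery rate of 0.05. Timm8b, a chaperone of the intermembrane space, had 25.7, 26.2 and 25.3 CPM in WT mice and 49.97, 25.8 and 39.4 CPM in Lztr1 R409C/+ mice, with overlap (log2 fold change 0.58, edgeR unadjusted p = 0.0183, adjusted p = 0.492). All 3 VDAC genes of the outer membrane channel had fitted values below WT, from -0.28 for Vdac3 to -0.11 for Vdac1, with overlap and 0 at an unadjusted p under 0.05.

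Of 18 other inner membrane transport genes, 9 had fitted values above and 9 below WT, with a median of -0.01 and 0 past the false discovery rate. Mcub, the inhibitory paralog of the calcium uniporter pore, had 1.20, 0.839 and 0.855 CPM in WT mice and 1.91, 2.42 and 1.57 CPM in Lztr1 R409C/+ mice, without overlap (log2 fold change 1.03, edgeR unadjusted p = 0.00891, adjusted p = 0.410). Micu3, a calcium sensor of the uniporter, had a log2 fold change of -0.96 with overlap (edgeR unadjusted p = 0.0471). A separate list of 4 other carriers had 3 fitted values above WT and 1 below, with a median of 0.13 and 0 past the false discovery rate. Its members Ucp3, Mtch1 and Mtch2 overlapped between genotypes, with log2 fold changes of 0.09, 0.16 and -0.165. Ucp2, an uncoupling protein of the same carrier fold, had 46.8, 38.7 and 28.6 CPM in WT mice and 52.5, 67.8 and 68.5 CPM in Lztr1 R409C/+ mice, without overlap (log2 fold change 0.73, edgeR unadjusted p = 0.00293, adjusted p = 0.284). Ucp2 is abundant in macrophages, whose markers were higher in the same mice, and their part in its level was not tested.

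Promoter sequences were searched for a few short motifs, as a description with no test. Of the 37 members 29 matched by symbol in the RefSeq promoters of GRCm38.p6, with 38 promoters of 250 bases before to 50 after the start, so that some members have more than 1. GGGCGG, the letters of the SP1 core read on both strands, was present in 34 of these 38 promoters (89.5%), against 35.7% of all 32851 promoters and 60.3% of the 13976 promoters of protein-coding genes tested here. CCAAT was in 21 (55.3%, against 37.4% of all and 37.4% of those tested) and TATAAA in 0 (against 13.6% of all and 7.6% of those tested). CCGGAAG, an ETS core, was in 5 (13.2%, against 8.86% and 15.9%), and a relaxed NRF1 core only in that of Slc25a3 (2.63%, against 4.6% and 9.02%). The stricter NRF1 core and the ERR letters TCAAGGTCA were in 0, against 0.97% and 0.42% of all promoters and 1.85% and 0.26% of those tested.

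Promoters of the 2 highest carriers and of Slc25a45, the member with the greatest difference, are shown for the 250 bases before the start site, with capitals marking GGGCGG and CCGGAAG on either strand. They lie in GRCm38.p6, an older build than that of the counts, at chr8:46211063-46211312 on the minus strand for Slc25a4, chr10:91123968-91124217 on the minus strand for Slc25a3 and chr19:5877572-5877821 on the plus strand for Slc25a45. That of Slc25a4 holds 1 CCGGAAG, that of Slc25a3 holds 1 of each, and that of Slc25a45 holds 1 GGGCGG. The GGGCGG counted above for Slc25a4 lies outside the stretch shown. These matches are letters in a window, and binding was not measured.
Slc25a4 promoter: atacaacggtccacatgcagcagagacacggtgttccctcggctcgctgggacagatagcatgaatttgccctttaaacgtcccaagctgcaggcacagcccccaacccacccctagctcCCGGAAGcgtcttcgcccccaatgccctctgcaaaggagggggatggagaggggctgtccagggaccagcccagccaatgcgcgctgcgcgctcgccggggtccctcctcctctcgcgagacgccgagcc
Slc25a3 promoter: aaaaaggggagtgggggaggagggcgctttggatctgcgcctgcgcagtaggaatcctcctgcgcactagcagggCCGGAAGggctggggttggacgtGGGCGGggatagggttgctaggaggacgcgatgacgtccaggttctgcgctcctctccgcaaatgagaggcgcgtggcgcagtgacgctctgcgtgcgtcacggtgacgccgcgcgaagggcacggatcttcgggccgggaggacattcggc
Slc25a45 promoter: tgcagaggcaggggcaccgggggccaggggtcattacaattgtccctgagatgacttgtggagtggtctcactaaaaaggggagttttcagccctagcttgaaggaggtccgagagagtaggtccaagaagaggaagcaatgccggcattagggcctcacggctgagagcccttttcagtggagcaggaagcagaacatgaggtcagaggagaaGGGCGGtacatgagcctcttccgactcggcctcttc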

How the data were processed

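mRNA-Seq counts of LVs from 3 Lztr1 R409C/+ and 3 WT mice were analysed, grouped by the name WT or Mut and the replicate number of the sample labels. The labels do not name the allele, and that Mut stands for Lztr1 R409C/+ was taken from the paper. The authors deposited whole-number counts per gene, which per the submitters' notes and the methods came from reads trimmed with Trim Galore, aligned by HISAT2 to GRCm39 and quantified with StringTie, rRNA excluded. The annotation release and the use of strand are not given in the sources used here, and the library kit is named without a strand option, so that overlapping genes on opposite strands may share reads. The authors also deposited a table of gene names whose log2 fold change, average log2 CPM, p-value and adjusted p-value columns hold their own comparison and were not used. Members are every symbol matching Slc25a and a digit in that table, with 2 symbols not reported here, and the members and lists were chosen with earlier results of these data known.

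Counts were filtered with filterByExpr, scaled with TMM and tested with edgeR 4.0.16 (R 4.3.3, robust quasi-likelihood, group only, two-sided) over all 17212 genes with Benjamini-Hochberg adjustment at 0.05. CPM values are TMM-normalised, and the common biological coefficient of variation was 26.1%. TPM used the exon union length of GENCODE M39, in which 31972 identifiers matched with version and 24264 without. Depth floors of 3 counts cover counting error only. Ratios were compared with an exact permutation test over mice (scipy 1.17.1). Alternatives were other scalings, DESeq2 1.42.0, edgeR's exact test, other filters, removal of mitochondrially encoded genes, a replicate block, a length correction and leaving out mice. Values in every mouse are given for the 5 highest members by TPM, those with an unadjusted p under 0.05 or without overlap, and the members of pairs. Each group names its highest member and that with the smallest p, and other lists name up to 3 genes, except that all 4 are named for the list of other carriers. Pair members were chosen as related isoforms, and Slc25a18 to Slc25a22 was left out since Slc25a18 had 12 counts in all.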

Additional observations from a re-analysis of the deposited data

How the results depend on the processing

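The count of 0 carrier genes past the false discovery rate of 0.05, in either direction, held under each of the 17 alternatives run. The 2 higher members at an unadjusted p under 0.05 became 1 with DESeq2 size factors, 1 with edgeR's exact test or the length correction, 0 with library size only and 0 to 3 when 1 mouse was left out. The 1 lower member became 2 with DESeq2 size factors, DESeq2's Wald test or no filter on low counts, 0 with library size only, upper quartile scaling or the length correction, 0 without the mice of lowest and highest mitochondrially encoded share (chosen after the data were seen), and 0 to 3 when 1 mouse was left out. With the replicate number as a block the counts were 1 higher and 0 lower. Deviations of same-numbered mice had correlations of -0.0013, 0.0215 and -0.0573, so the numbers were not taken as pairs. The median log2 fold change of the members, -0.0142, was -0.18 with library size only, 0.0292 with upper quartile scaling and -0.0297 to 0.0544 when 1 mouse was left out. With library size only, 0 members were higher without overlap and 2 lower, and upper quartile scaling gave 3 higher and 3 lower in place of 2 and 6. Over all settings 9 members kept a value above WT, 12 kept one below and 16 had both. The 16 are Slc25a4, Slc25a12, Slc25a17, Slc25a23, Slc25a24, Slc25a27, Slc25a28, Slc25a29, Slc25a30, Slc25a32, Slc25a33, Slc25a35, Slc25a38, Slc25a39, Slc25a44 and Slc25a51. Slc25a4 changed direction in 2 settings, at -0.04 with library size only and -0.01 without Lztr1 R409C/+ replicate 3, with a range of -0.01 to 0.47 over the fits without 1 mouse. The same fits moved the log2 fold change of Slc25a16 from -0.45 (without Lztr1 R409C/+ replicate 1) to -0.17 (without Lztr1 R409C/+ replicate 3), Slc25a5 from 0.15 (without Lztr1 R409C/+ replicate 3) to 0.35, Slc25a34 from 0.09 (without WT replicate 2) to 0.23, Slc25a26 from -0.28 to -0.10 (without WT replicate 3), Slc25a40 from -0.25 to -0.11 and Slc25a3 from -0.25 to -0.12 (both without Lztr1 R409C/+ replicate 3). With the length correction the log2 fold change was 0.1 in place of 0.24 for Slc25a5 and 0.05 in place of 0.16 for Slc25a34. It was 0.07 in place of 0.17 for Slc25a4, -0.16 in place of -0.09 for Slc25a11 and -0.12 in place of -0.19 for Slc25a40. Without the mice of lowest and highest mitochondrially encoded share the 2 higher members were Slc25a4 and Slc25a45. When 1 mouse was left out, the difference in log2 ratio ran from -0.304 to 0.223 for Slc25a5 to Slc25a4, -0.103 to 0.186 for Slc25a37 to Slc25a28, -0.087 to 0.458 for Slc25a33 to Slc25a36, -0.512 to -0.005 for Slc25a24 to Slc25a23, -0.199 to 0.127 for Slc25a25 to Slc25a23 and -0.084 to 0.19 for Slc25a34 to Slc25a35. The cause of these changes was not tested. The lowest value of any member, 0.965 CPM for Slc25a14 in Lztr1 R409C/+ replicate 2, lay above the floor of 3 counts, 0.0317 to 0.0541 CPM, and 3 mice per group limit the precision.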
